A study of Rattus norvegicus with 15 samples.

Results

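Ddb2, Xpc, Rrm2b, Polk and Polh are widely described as repair or damage tolerance genes that p53 switches on after DNA damage. Of the Gadd45 family, Gadd45a is the classic p53 target, while Gadd45b and Gadd45g are also known from other signals. These 8 genes encode proteins that repair or tolerate DNA damage or signal it. They were taken by gene name from a table of transcript levels, together with the unnamed transcripts of their loci, and the levels of the transcripts were summed to 1 value per gene and library. They made up 23 of 85322 transcripts and 8 of 37367 genes. The libraries came from primary rat brain microvascular endothelial cells (BMECs, the cells that line the capillaries of the brain), prepared from the cerebral cortex of Sprague Dawley littermates aged 2 to 3 weeks. Cells of 4 groups received x-rays, at 2.5 Gy per min, and were collected 12 h after 5 Gy, 12 h after 20 Gy, 24 h after 5 Gy or 24 h after 20 Gy. The control cells had the same handling without x-rays and are labelled as cultured for 12 h. Each group had 3 libraries, 15 in all. An unexposed 24 h culture was not analysed here, so at 24 h the time after exposure and the time in culture cannot be told apart.

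The proteins act at different points of the response to DNA damage. DDB2 and XPC recognise damaged bases at the start of nucleotide excision repair, RRM2B is a subunit of the ribonucleotide reductase that supplies deoxynucleotides outside S phase, and POLK and POLH are translesion polymerases that copy past damaged bases. The GADD45 proteins are small proteins without known enzyme activity that bind MAP3K4, the CDK1 and cyclin B complex, and PCNA, and the 3 genes of the family also answer to stresses other than DNA damage.

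The levels are in FPKM, fragments per kilobase of transcript scaled to the mapped fragments of the library, which corrects for transcript length and library size. Between 5.44 and 7.49 gigabases were aligned per library, and the median library held from 261 (Ddb2) to 3090 (Gadd45a) read equivalents per gene. Among 14 listed endothelial markers, 12 were in the table as named genes and 7 of these (Cdh5, Tek, Cldn5, Vwf, Tie1, Emcn and Esam) had a mean below 0.5 FPKM. Tie1 and Emcn were at 0, as was Hspa8, a chaperone gene that cells of every type use. Hspa8 lies in a locus with several gene names, where unnamed transcripts were left out of the sum. Its 0 can come from that rule, so that a 0 here need not mean absence. Whether this holds for Tie1 and Emcn was not tested. The highest of the listed endothelial markers was the glucose transporter Slc2a1, at 12.4 to 25.7 FPKM. In the control libraries 8 fibroblast markers summed to 2042 to 2249 FPKM, of which Dpt had a mean below 0.5 FPKM over all libraries. There 9 pericyte and smooth muscle markers summed to 154 to 162 FPKM, mostly Anpep, and 4 of them (Rgs5, Kcnj8, Abcc9 and Acta2) had a mean below 0.5 FPKM. Cdh5 and Vwf, which define endothelial cells, had control means of 0.191 and 0.055 FPKM (n = 3) in cultures labelled as endothelial. The summed fibroblast markers were at 1522 to 1738 FPKM in the 12 h libraries and at 374 to 487 FPKM in the 24 h libraries. Most of the sum in control cells was collagen, with Col1a1 at 516 FPKM in control cells and at 27.0 and 31.4 FPKM at 24 h after 5 Gy and 20 Gy. Pdgfra, the fibroblast receptor for platelet-derived growth factor, was at 52.1 FPKM in control cells and at 60.8 and 51.6 FPKM at 24 h, and Dcn, which encodes decorin, at 196, 82.3 and 82.8 FPKM. The part of these shifts in the results below was not tested. In bulk RNA, fewer cells of a type and less RNA per cell cannot be told apart.

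Differences are given as changes of log2(FPKM + 1), which understates the change of genes with low values. A gene passed the test with a Benjamini-Hochberg adjusted p below 0.05 over the 17895 genes with a mean of at least 0.5 FPKM (limma) and a change of at least 1.5-fold. The 1.5-fold limit applies to the log2(FPKM + 1) scale throughout, so that ratios of mean FPKM can be larger. All 8 genes were above that mean. The comparisons with control share the 3 control libraries. An exact permutation test of 3 against 3 libraries cannot go below p = 0.1, and the text therefore rests on limma for single groups. The study's methods call the libraries of a group biological replicates, and nothing in the labels ties them to separate animals or cultures, so that p-values measure the spread between these libraries.

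After 24 h, 5 of the 8 genes were higher than in the control cells at both doses, namely Gadd45g, Gadd45b, Gadd45a, Polk and Polh, and none was lower. At 12 h, Gadd45b was lower at both doses, Gadd45g was lower after 5 Gy, and Xpc was higher after 5 Gy. Ddb2 and Rrm2b did not pass the test in any group. Over all genes tested, 4.98% passed as higher and 4.96% as lower 12 h after 5 Gy, against 1 and 2 of the 8 genes, and 3.64% passed as lower 12 h after 20 Gy, against 1 of the 8. At 24 h the share of all genes that passed as higher was 20.5% after 5 Gy and 17.0% after 20 Gy, against 5 of the 8 genes at each dose. The median change of the 8 genes at 24 h was 1.49 after 5 Gy and 1.25 after 20 Gy on the log2 scale, against -0.05 and -0.14 over all genes. The exposed and the control libraries did not overlap for 5, 5, 7 and 6 of the 8 genes (12 h after 5 Gy and 20 Gy, then 24 h), against 38.5%, 36.8%, 67.4% and 62.7% of all genes. The 7 include Rrm2b, whose nearest libraries were at 2.986 FPKM (5 Gy 24 h) and 2.983 FPKM (control).

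**Figure D1:**
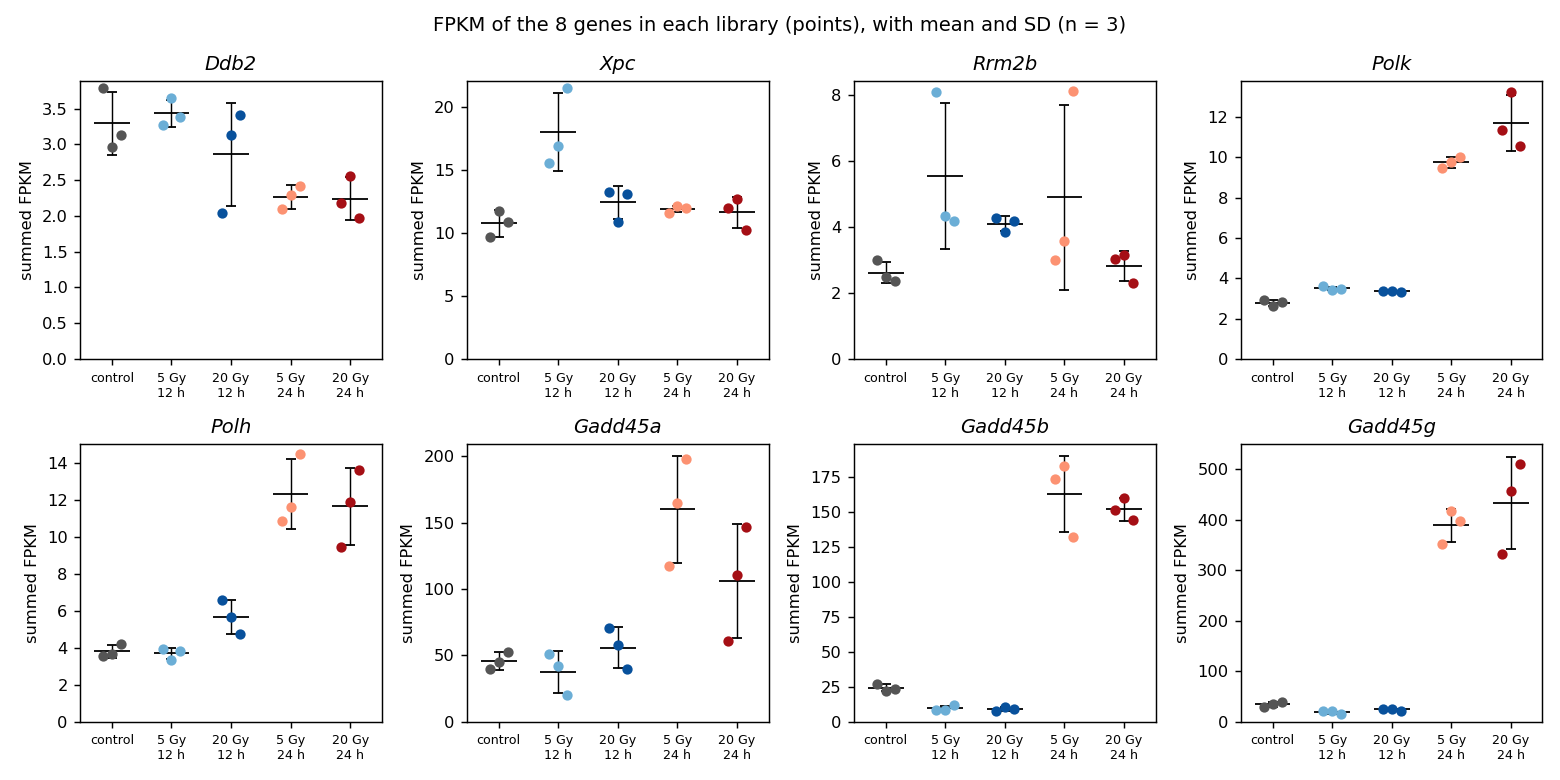
Summed FPKM (y axis, linear, from 0, with a scale of its own for each gene) of the 8 genes in each of the 15 libraries (points) by group (x axis), with the mean and SD of 3 libraries (horizontal line and bar). Polk, Polh, Gadd45b and Gadd45g were higher in each of the 6 libraries at 24 h than in any other library, Gadd45a and Rrm2b show wide spreads in single groups, and Xpc was highest 12 h after 5 Gy.

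**Figure D2:**
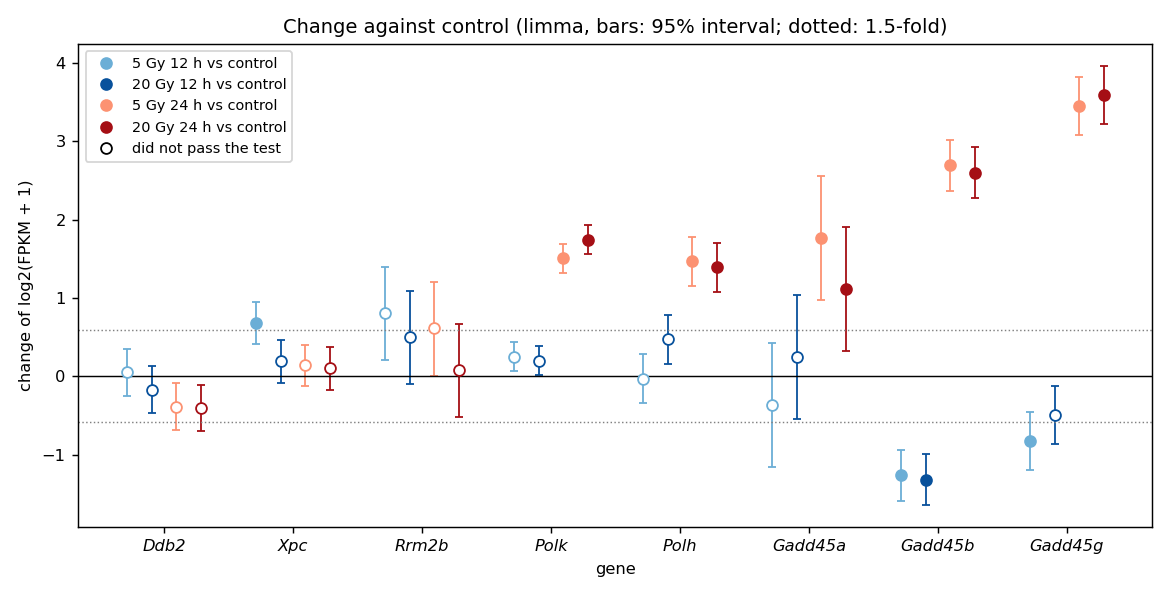
Change of log2(FPKM + 1) against control (y axis) for each gene (x axis) in the 4 exposed groups (colours), with 95% intervals from limma. Filled points passed the test, open points did not, and dotted lines mark 1.5-fold. Gadd45b lies below 0 at 12 h and above 0 at 24 h at both doses.

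Gadd45g, on the minus strand of chromosome 17 (13391467 to 13393243, Rnor_6.0, 4 exons), had the largest change of the 8 genes. It is the GADD45 family member best known for its induction by cytokines and growth arrest. Its level was 29.8, 35.0 and 39.4 FPKM in the control libraries, 20.9, 22.1 and 15.1 FPKM 12 h after 5 Gy, and 25.4, 25.6 and 21.8 FPKM 12 h after 20 Gy. At 24 h it was at 352, 417 and 398 FPKM after 5 Gy and at 332, 458 and 511 FPKM after 20 Gy. All 12 h libraries were below the lowest control library, and all 24 h libraries were above the highest. The mean level was 11.2 times that of control 24 h after 5 Gy (log2 change 3.45 ± 0.17 SE, limma adjusted p = 8.08e-09) and 12.5 times 24 h after 20 Gy (3.59 ± 0.17, adjusted p = 5.32e-09). Its rise 24 h after 20 Gy was the 41st largest among the 17895 genes. The decrease at 12 h passed the test after 5 Gy (-0.82 ± 0.17, limma adjusted p = 0.00513) and not after 20 Gy (-0.49 ± 0.17, adjusted p = 0.066). With both doses together it was -0.66 (limma adjusted p = 0.00645), which was -0.56 without control replicate 3 and -0.58 without 5 Gy 12 h replicate 3, in both cases under 1.5-fold.

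Gadd45b, on the minus strand of chromosome 7 (11646269 to 11648322, 4 exons), fell at 12 h and rose at 24 h. It is an early gene of TGF-beta and NF-kB signalling as well as of DNA damage. The control libraries were at 27.0, 22.0 and 23.8 FPKM. At 12 h the level was 8.24, 8.69 and 11.8 FPKM after 5 Gy and 7.85, 10.3 and 9.27 FPKM after 20 Gy, with every exposed library under the lowest control library. At 24 h it was 174, 183 and 132 FPKM after 5 Gy and 151, 160 and 144 FPKM after 20 Gy, with every exposed library above the highest control library. The control mean was 2.53 and 2.65 times the 12 h means (log2 changes -1.26 ± 0.15 and -1.32 ± 0.15, limma adjusted p = 0.000104 and 9.12e-05). The 24 h means were 6.71 and 6.26 times the control mean (2.69 ± 0.15 and 2.60 ± 0.15, limma adjusted p = 2e-08 and 2.43e-08). From 12 h to 24 h the mean rose 17.0-fold after 5 Gy and 16.6-fold after 20 Gy, the 32nd and the 29th largest rise of all genes tested.

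Gadd45a, on the minus strand of chromosome 4 (97782512 to 97784842, 4 exons), is the classic p53 target of the family. Its control level was 39.5, 45.2 and 52.8 FPKM. At 12 h it was at 50.7, 42.2 and 20.1 FPKM after 5 Gy and at 70.6, 57.7 and 39.4 FPKM after 20 Gy, and both groups overlapped the control group. The 12 h changes of -0.36 (95% interval -1.16 to 0.43) and 0.25 (-0.54 to 1.04) did not pass the test. At 24 h the level was 117, 165 and 198 FPKM after 5 Gy and 60.7, 111 and 147 FPKM after 20 Gy, all above the highest control library. The change was 1.76 ± 0.37 after 5 Gy (limma adjusted p = 0.00111), a mean 3.49 times that of control. It was 1.11 ± 0.37 after 20 Gy (limma adjusted p = 0.019), a mean 2.31 times that of control, where replicate 1 lay nearest to the control libraries. The call after 20 Gy was lost without control replicate 1 (1.01, adjusted p = 0.06), without 20 Gy 24 h replicate 2 (1.04, adjusted p = 0.0546) and without 20 Gy 24 h replicate 3 (0.84, adjusted p = 0.0864). From 12 h to 24 h the gene rose after 5 Gy (2.12 ± 0.37, limma adjusted p = 0.000311), and the value of 0.86 ± 0.37 after 20 Gy did not pass the test (adjusted p = 0.0624). The latter passed it without 20 Gy 24 h replicate 1 (1.21, limma adjusted p = 0.015), with quantile normalization (0.98, adjusted p = 0.035) and with rescaling to the same sum (0.90, adjusted p = 0.0459). With other libraries left out it ran down to 0.58, without 20 Gy 24 h replicate 3 (adjusted p = 0.229).

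The makeup of the family therefore differed with time. FPKM corrects for length, so that levels can be compared between the 3 genes. Their summed level was 105 ± 10.1 FPKM in the control cells, 66.6 ± 17.3 and 89.3 ± 17.1 FPKM at 12 h, and 712 ± 62.2 and 692 ± 133 FPKM at 24 h (SD, n = 3, 5 Gy and 20 Gy). Gadd45a held 41.0 to 45.5% of that sum in the control libraries and 42.8 to 68.0% in the 12 h libraries, where it was the highest of the 3 genes in every library. At 24 h Gadd45g held 54.6 to 54.8% of the sum in the 5 Gy group and 61.0 to 63.7% in the 20 Gy group, and was then the highest in every library. The share of Gadd45b was 20.5 to 28.1% in the control libraries, 7.56 to 25.2% in the 12 h libraries and 18.0 to 27.8% in the 24 h libraries.

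**Figure D3:**
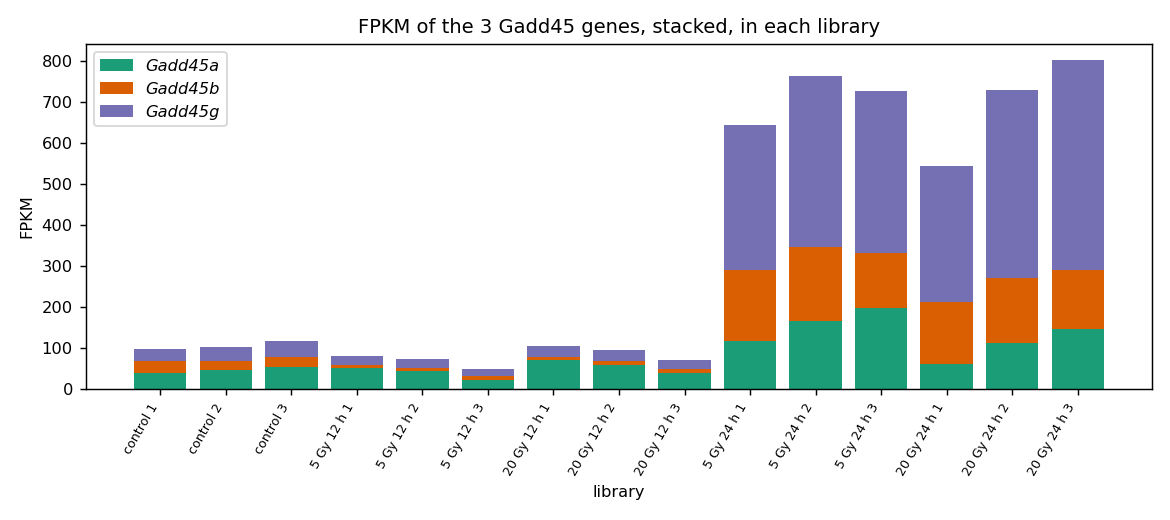
FPKM of Gadd45a, Gadd45b and Gadd45g (stacked bars, y axis from 0) in each of the 15 libraries (x axis). The summed level ran from 47.0 to 116 FPKM in the 9 control and 12 h libraries and from 544 to 802 FPKM in the 6 libraries at 24 h.

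The 250 bases before the start of the 3 Gadd45 genes are shown because all 3 genes rose at 24 h. At 12 h after 5 Gy the 3 values were negative, and that of Gadd45a did not pass the test. They are RefSeq sequences of the rat build GRCr8, not the build of the deposited table, written 5′ to 3′ in the direction of the gene. Capitals mark matches on either strand to the motifs searched, which were the p53 half-site consensus by name, the cAMP response element (TGACGTCA), the AP-1 site (TGANTCA), the CCAAT box, the TATA box as TATAAA and the GC box as GGGCGG.
Gadd45a (chr4:97486800-97487049, minus strand): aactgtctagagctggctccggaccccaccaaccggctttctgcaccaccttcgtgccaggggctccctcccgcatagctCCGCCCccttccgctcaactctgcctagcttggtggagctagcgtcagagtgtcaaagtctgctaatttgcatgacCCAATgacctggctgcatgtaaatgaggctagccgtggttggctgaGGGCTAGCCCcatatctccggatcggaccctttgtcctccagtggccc
Gadd45b (chr7:9430719-9430968, minus strand): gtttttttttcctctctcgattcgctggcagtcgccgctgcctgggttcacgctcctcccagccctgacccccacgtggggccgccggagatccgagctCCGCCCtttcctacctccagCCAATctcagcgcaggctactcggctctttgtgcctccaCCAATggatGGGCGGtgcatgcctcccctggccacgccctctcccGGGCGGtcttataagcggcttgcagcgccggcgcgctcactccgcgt
Gadd45g (chr17:13530352-13530601, minus strand): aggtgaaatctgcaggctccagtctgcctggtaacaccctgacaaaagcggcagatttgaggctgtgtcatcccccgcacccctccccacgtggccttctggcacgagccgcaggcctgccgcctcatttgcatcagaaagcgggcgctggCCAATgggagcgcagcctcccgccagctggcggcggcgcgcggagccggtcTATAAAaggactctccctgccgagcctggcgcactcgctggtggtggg
The p53 half-site consensus was matched in the window of Gadd45a, at position -48 from the start, and not in those of Gadd45b and Gadd45g, while 6.64% of 33469 rat promoter windows of this length held a match. CCAAT occurred in all 3 windows and in 34.0% of all windows, GGGCGG in those of Gadd45a and Gadd45b and in 30.5% of all windows, and TATAAA in that of Gadd45g and in 12.9% of all windows. The cAMP response element was in 1.59% and the AP-1 site in 6.34% of all windows, and neither was in these 3. Of the 8 genes, 6 had a window in the RefSeq table. Those of Xpc, Polk and Polh also held GGGCGG, at -78 and -10, at -189 and at -17. They held no match to the other motifs searched. A match describes these letters only, and binding was not measured.

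Both translesion polymerases rose at 24 h and neither passed the test at 12 h. Polk lies on the minus strand of chromosome 2 (27305728 to 27364906) and its protein extends DNA past bulky adducts. Its control level was 2.93, 2.63 and 2.81 FPKM. It was 3.60, 3.44 and 3.48 FPKM 12 h after 5 Gy and 3.39, 3.35 and 3.31 FPKM 12 h after 20 Gy, above every control library in each case. At 24 h it was 9.48, 9.75 and 10.0 FPKM after 5 Gy and 11.3, 13.3 and 10.6 FPKM after 20 Gy, above every other library. The 24 h means were 3.50 and 4.21 times the control mean (log2 changes 1.51 ± 0.09 and 1.74 ± 0.09, limma adjusted p = 2.41e-08 and 7.21e-09). The 12 h values of 0.25 and 0.20 were under 1.5-fold, with limma adjusted p of 0.0591 and 0.134. Polk had the smallest SE of the 8 genes.

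Polh, on the plus strand of chromosome 9 (17163354 to 17197926), encodes the polymerase that copies past ultraviolet photoproducts. Its control level was 3.53, 3.65 and 4.20 FPKM, and the 5 Gy 12 h libraries at 3.92, 3.35 and 3.84 FPKM overlapped it. The 20 Gy 12 h libraries, at 6.60, 5.67 and 4.76 FPKM, lay above both, with a change of 0.47 ± 0.14 against control that had an adjusted p of 0.0419 (limma) and was under 1.5-fold. At 24 h the level was 10.8, 11.6 and 14.5 FPKM after 5 Gy and 9.45, 11.9 and 13.6 FPKM after 20 Gy, 3.24 and 3.07 times the control mean (1.47 ± 0.14 and 1.39 ± 0.14, limma adjusted p = 2.33e-06 and 3.98e-06). The 2 groups at 24 h overlapped each other and no other group. In the 24 h libraries a part of the level lay in unnamed transcripts of the locus. The annotated transcript alone rose by 0.90 after 5 Gy and by 1.00 after 20 Gy, and passed the test at both doses.

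Among the damage recognition genes, Xpc rose 12 h after 5 Gy and did not pass the test in the other 3 exposed groups. Xpc lies on the minus strand of chromosome 4 (123134457 to 123161985). Its level was 9.64, 11.8 and 10.9 FPKM in control cells and 15.5, 16.9 and 21.4 FPKM 12 h after 5 Gy, with no overlap. It was 13.3, 10.9 and 13.1 FPKM 12 h after 20 Gy, 11.6, 12.1 and 12.0 FPKM 24 h after 5 Gy and 12.0, 12.7 and 10.2 FPKM 24 h after 20 Gy, and these groups overlapped the control group. The rise 12 h after 5 Gy was 0.68 ± 0.12 (limma adjusted p = 0.00211), 1.67 times the control mean. Without 5 Gy 12 h replicate 3 it was 0.55 and under 1.5-fold. From 12 h to 24 h after 5 Gy the value was -0.54 (limma adjusted p = 0.00224), under 1.5-fold on the log2(FPKM + 1) scale. The 12 h mean itself was 1.51 times the 24 h mean. The change passed the test with quantile normalization (-0.64), with length-weighted sums (-0.62) and without 5 Gy 12 h replicate 1 (-0.64). The annotated transcript alone gave 1.59 for the rise at 12 h, with an adjusted p of 0.469 (limma). The level of that transcript ran from 0.009 to 16.7 FPKM among the 15 libraries, and an assembled transcript of 3386 bases reached 10.5 FPKM where the annotated one was near 0.

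Ddb2, on the minus strand of chromosome 3 (80030387 to 80052983), encodes the damage sensor that hands ultraviolet lesions to XPC. Its level was 3.79, 2.97 and 3.13 FPKM in control cells, 3.27, 3.64 and 3.38 FPKM 12 h after 5 Gy, and 2.04, 3.13 and 3.41 FPKM 12 h after 20 Gy, and these groups overlapped. At 24 h it was 2.09, 2.29 and 2.42 FPKM after 5 Gy and 2.18, 2.56 and 1.97 FPKM after 20 Gy, all under the lowest control library. The changes of -0.39 ± 0.14 and -0.41 ± 0.14 had adjusted p of 0.0258 and 0.0217 (limma) and were under 1.5-fold, so that neither passed the test. The interval of the change with both doses together at 24 h was -0.66 to -0.14. The annotated transcript alone, which ran from 0 to 2.33 FPKM, changed by -1.10 12 h after 20 Gy (limma adjusted p = 0.0222) and by 0.77 from 12 h to 24 h after 20 Gy (adjusted p = 0.0391), where the assembled transcript of 2281 bases changed by -0.79 (adjusted p = 0.00269). In the summed level, Ddb2 was the 1 gene of the 8 with values under control in every library at 24 h.

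Rrm2b, on the minus strand of chromosome 7 (76746535 to 76780888), was measured through unnamed transcripts, since its annotated transcript was listed at 0 in every library. Its level was 2.98, 2.50 and 2.37 FPKM in control cells, 8.07, 4.33 and 4.19 FPKM 12 h after 5 Gy, and 4.28, 3.85 and 4.17 FPKM 12 h after 20 Gy. Every 12 h library was above every control library. At 24 h it was 2.99, 3.57 and 8.11 FPKM after 5 Gy and 3.01, 3.15 and 2.29 FPKM after 20 Gy. Only the 5 Gy group lay above the control libraries, and barely so, with its lowest at 2.986 FPKM against a highest control of 2.983 FPKM. No change passed the test. The largest was 0.81 ± 0.28 12 h after 5 Gy (limma adjusted p = 0.0588), and with quantile normalization it passed (0.83, adjusted p = 0.0487). At 24 h after 5 Gy the value was 0.61 (limma adjusted p = 0.0739), and without 5 Gy 24 h replicate 1 it was 0.84 and passed (adjusted p = 0.0247), as did 0.72 with rescaling to the same sum (adjusted p = 0.0394). Without 5 Gy 24 h replicate 3, the highest of the group, it was 0.24 (limma adjusted p = 0.357). With both doses at 12 h together, the change was 0.65 (limma adjusted p = 0.066, two-sided exact permutation p = 0.0238, the smallest that 6 against 3 libraries allow), and it passed the test in a fit of these 9 libraries alone (limma adjusted p = 0.0322).

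The 2 highest Rrm2b libraries owed a large share of their level to 1 short transcript. An assembled transcript of 390 bases and 3 exons stood at 3.69 FPKM in 5 Gy 12 h replicate 1 and at 4.15 FPKM in 5 Gy 24 h replicate 3, and at no more than 0.649 FPKM elsewhere. A short transcript weighs heavily in a sum of FPKM. Weighted by transcript length, the level of Rrm2b was 2.60 ± 0.31 FPKM in control cells, 3.94 ± 0.22 and 4.09 ± 0.22 FPKM 12 h after 5 Gy and 20 Gy, and 3.41 ± 0.38 and 2.48 ± 0.59 FPKM at 24 h (SD, n = 3). With this measure, added after seeing the data, the 12 h changes of log2(FPKM + 1) were 0.46 and 0.50 (limma adjusted p = 0.0151 and 0.0108). These were under 1.5-fold on that scale, while the 12 h means themselves were 1.51 and 1.57 times the control mean.

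**Figure D4:**
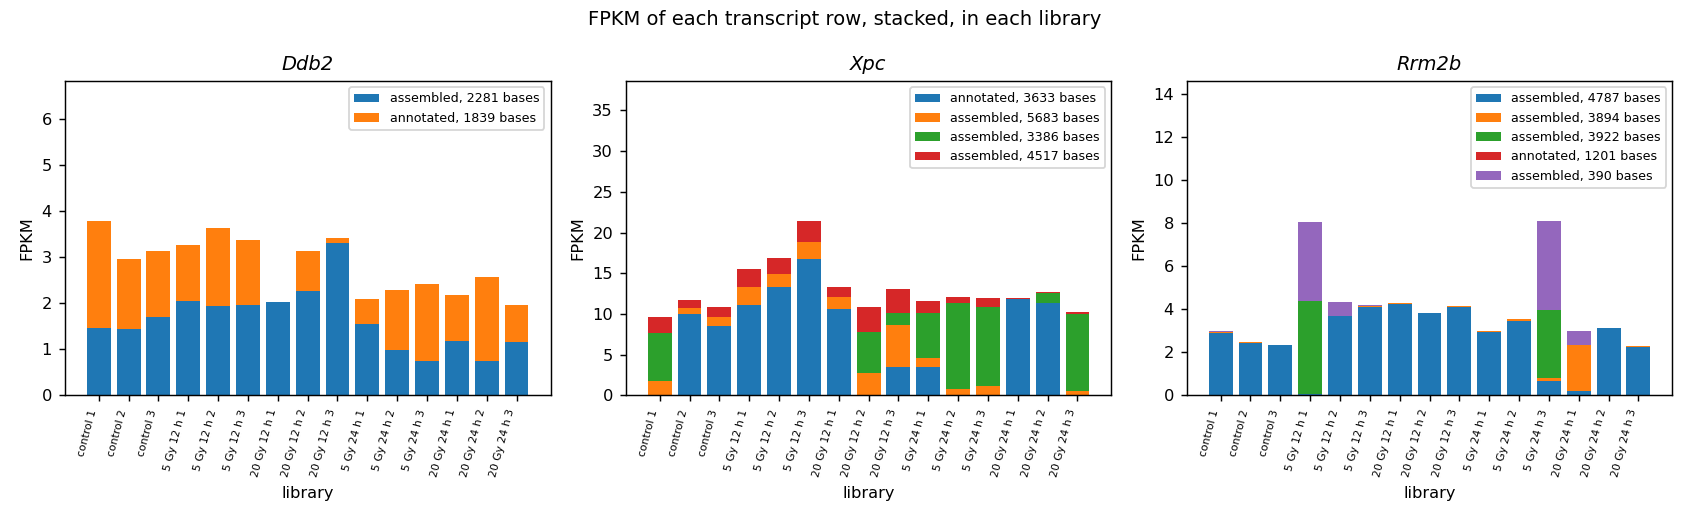
FPKM of each transcript of Ddb2, Xpc and Rrm2b (stacked bars, y axis from 0) in each of the 15 libraries (x axis), with the length of each transcript and whether it was annotated or assembled. In Xpc the annotated transcript of 3633 bases and an assembled one of 3386 bases replaced each other from library to library, and in Rrm2b the transcript of 390 bases stood out in 5 Gy 12 h replicate 1 and 5 Gy 24 h replicate 3.

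The order of the 5 groups differed between the genes. Polk was highest 24 h after 20 Gy, then 24 h after 5 Gy, and lowest in control cells, and the same pair at 24 h led Polh, Gadd45a, Gadd45b and Gadd45g. The difference between the doses at 24 h did not pass the test for any of these 5 genes. The lowest group was control for Polk, 12 h after 5 Gy for Polh, Gadd45a and Gadd45g, and 12 h after 20 Gy for Gadd45b. For Polh and Gadd45a the lowest group and the control group overlapped. Ddb2 and Xpc were highest 12 h after 5 Gy. The next group was control for Ddb2, with overlap, and 20 Gy at 12 h for Xpc, without overlap. Neither difference passed the test (limma adjusted p = 0.853 and 0.193). Rrm2b was also highest 12 h after 5 Gy and lowest in control cells.

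The comparison of 20 Gy with 5 Gy at the same time gave 0 of the 8 genes that passed the test (limma). The share of all genes that passed it was 0.123% at 12 h and 2.42% at 24 h. At an unadjusted p below 0.05 there were 2 of the 8 genes at 12 h and 1 at 24 h, against 7.12% and 20.0% of all genes. Xpc was lower after 20 Gy than after 5 Gy at 12 h by -0.49 (95% interval -0.76 to -0.23, limma adjusted p = 0.193) and Polh higher by 0.50 (0.19 to 0.81, adjusted p = 0.329), in both cases without overlap. The libraries of the 2 doses did not overlap for 3 of the 8 genes at 12 h and 1 at 24 h, against 12.8% and 23.2% of all genes. Polk at 24 h differed by 0.24 (0.05 to 0.42, limma adjusted p = 0.142), also without overlap. For Gadd45b and Gadd45g at 24 h the differences were -0.09 (-0.41 to 0.24) and 0.14 (-0.23 to 0.51). For Gadd45a at 24 h the interval was wide, at -1.44 to 0.15 around -0.65. The change from 12 h to 24 h differed between the doses by the test for 0 of the 8 genes, against 0.52% of all genes, and 4 of the 8 were at an unadjusted p below 0.05 (limma), against 12.9% of all genes. Gadd45a had the largest of these differences, -1.26 (-2.38 to -0.14, limma adjusted p = 0.323).

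From 12 h to 24 h, 5 of the 8 genes rose after 5 Gy and 4 after 20 Gy, against 17.1% and 14.1% of all genes. Over both doses 5 of the 8 rose, against 15.5% of all genes. The log2 changes were 4.18 for Gadd45g, 3.94 for Gadd45b, 1.49 for Gadd45a, 1.40 for Polk and 1.20 for Polh (limma adjusted p = 2.91e-11, 1.47e-11, 0.000214, 9.28e-10 and 3.49e-07, 6 against 6 libraries). The libraries of the 2 times did not overlap for Gadd45g, Gadd45b, Polk and Polh (4 of the 8, against 41.4% of all genes), and for Gadd45a the 60.7 FPKM of 20 Gy 24 h replicate 1 lay under the 70.6 FPKM of 20 Gy 12 h replicate 1. Ddb2 and Xpc were lower at 24 h than at 12 h by -0.34 and -0.32 (limma adjusted p = 0.00761 and 0.00603), under 1.5-fold.

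The other genes of these pathways moved in both directions. Of 23 other nucleotide excision repair genes tested, with both doses together, 0 were higher and 2 lower at 12 h, and 3 higher and 5 lower at 24 h. Their median change at 24 h was -0.14, against -0.10 over all genes, of which 18.9% were higher and 22.1% lower. At 12 h, 5.0% of all genes were higher and 4.7% lower, against 0 and 2 of the 8 genes. Ercc6, a transcription-coupled repair factor, rose by 0.83 and Gtf2h1, a subunit of TFIIH, by 0.85 at 24 h (limma adjusted p = 1.92e-05 and 3.23e-05). Lig1, the ligase that seals replicated DNA, changed by -1.40 at 12 h and -1.92 at 24 h, and the single-strand binding subunit Rpa2 by -0.96 and -1.42 (limma adjusted p = 1.9e-06, 9.8e-09, 0.000306 and 1.29e-06).

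Of 15 other translesion synthesis genes, 1 was higher and 3 lower at 12 h, and 3 higher and 5 lower at 24 h, with a median of -0.11 at 24 h. Poli, a further Y-family polymerase, rose at both times (0.64 and 1.79, limma adjusted p = 0.000176 and 3.05e-09), from 1.92 FPKM in control cells to 9.08 and 9.03 FPKM at 24 h (5 Gy and 20 Gy). Rev3l, the catalytic subunit of polymerase zeta, rose by 1.37 at 24 h (limma adjusted p = 8.95e-05). Pcna, the sliding clamp, was at 113 FPKM in control cells and 40.1 to 50.9 FPKM in the exposed groups, and changed by -1.27 at 12 h and -1.38 at 24 h. Usp1, which removes ubiquitin from PCNA, changed by -0.98 and -0.78 (limma adjusted p of Pcna 2.49e-06 and 9.09e-08, of Usp1 0.000812 and 0.000866).

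Of 13 other genes of deoxynucleotide supply, 1 was higher and 6 lower at 12 h, and 2 higher and 7 lower at 24 h, with a median of -0.69 at 24 h. Rrm2, the S-phase counterpart of Rrm2b, was at 61.2 FPKM in control cells, 7.52 and 33.3 FPKM 12 h after 5 Gy and 20 Gy, and 1.31 and 8.81 FPKM at 24 h. It changed by -1.87 at 12 h and -3.76 at 24 h (limma adjusted p = 0.000891 and 3.35e-07). The mean of Rrm2b was thus under that of Rrm2 in control cells and above it 24 h after 5 Gy, both per length. It stayed under that of Rrm2 24 h after 20 Gy (2.82 against 8.81 FPKM) and in both 12 h groups. Tk1, the S-phase thymidine kinase, changed by -1.64 and -2.96, while the deoxycytidine kinase gene Dck and the thymidylate synthase gene Tyms rose by 1.19 and 0.68 at 24 h (limma adjusted p = 0.000306, 2.25e-07, 4.58e-07 and 3.76e-06).

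The list of GADD45 partners held genes of bound proteins and of kinases of the p38 pathway, while Pcna was counted with translesion synthesis. Of its 11 genes tested, 2 were lower at 12 h, and 3 higher and 5 lower at 24 h. Map3k4, the kinase that GADD45 proteins bind and activate, rose by 1.60 at 24 h, and Map2k3, a p38 kinase kinase, by 1.07 (limma adjusted p = 8.64e-08 and 4.72e-07). Cdk1 fell by 1.01 at 12 h and fell by 2.77 at 24 h, and Ccnb1, its cyclin, changed by -0.75 and -2.50 (limma adjusted p = 0.0118, 8.96e-07, 0.0289 and 7.59e-07). The 12 h count of 2 was 0 without control replicate 3 and 1 without control replicate 2, 5 Gy 12 h replicate 3 or 20 Gy 12 h replicate 3.

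Lists of p53 targets and of other stress genes show what else moved at the same times. Of 24 genes of the p53 list, 15 were higher and 1 lower at 12 h, and 18 higher and 0 lower at 24 h, with medians of 1.00 and 1.80. Gdf15, a stress cytokine, rose by 3.71 and 4.91, and the death receptor gene Eda2r by 2.71 and 4.01 (limma adjusted p = 3.39e-09, 1.57e-11, 3.94e-07 and 1.09e-09). At 12 h with both doses together, 0 of the 8 genes passed as higher and 2 as lower, against 5.0% and 4.7% of all genes. Xpc and Polk were at 0.43 and 0.23 (limma adjusted p = 0.0103 and 0.0434), in both cases under 1.5-fold. Of 16 immediate early genes, 0 were higher and 10 lower at 12 h, and 8 higher and 6 lower at 24 h, with Egr1 and Egr3 lower at both times (-2.48 and -4.00, -4.30 and -4.53) and Myc and Klf4 higher at 24 h (2.15 and 3.22). Of 10 heat shock genes, 0 were higher and 1 lower at 12 h, and all 10 were higher at 24 h, led by Hspa1b (7.82) and Hsph1 (5.52). The call at 12 h was lost without control replicate 3. The summed heat shock level was 489 to 557 FPKM in control, 468 to 515 FPKM at 12 h, 2588 to 3394 FPKM 24 h after 5 Gy and 8355 to 10098 FPKM 24 h after 20 Gy, and its part in the levels of the 8 genes was not tested.

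**Figure D5:**
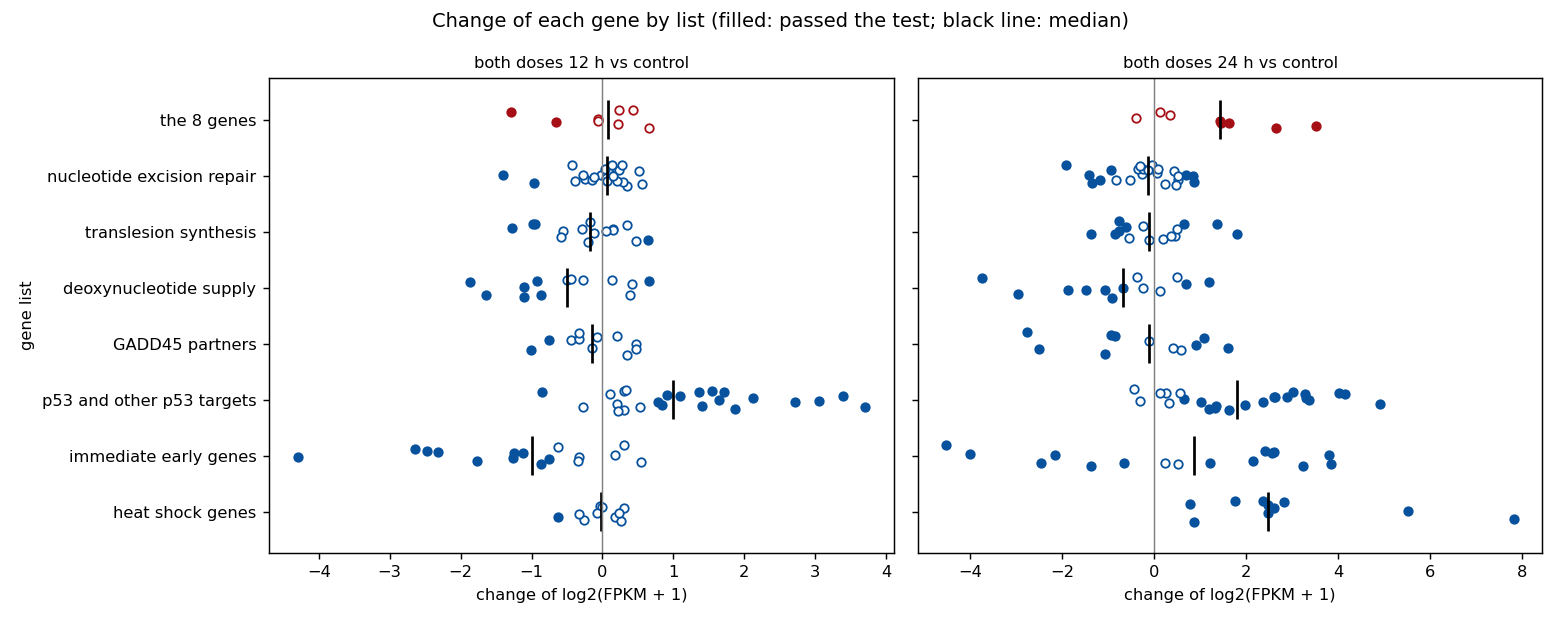
Change of log2(FPKM + 1) against control (x axis) of each gene of 8 lists (y axis), with both doses together at 12 h (left) and 24 h (right). Filled points passed the test and black lines are medians. The medians at 24 h were 1.44 for the 8 genes, 1.80 for the p53 list and 2.46 for the heat shock genes. Those of the 4 lists of pathway partners were between -0.69 and -0.11.

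The genes whose levels ran most like each of the 8 over the 15 libraries were ranked by Pearson's r of log2(FPKM + 1) among 8892 genes with a mean of at least 5 FPKM. The 15 libraries share the 5 groups, so that r mostly reflects the group means, and it is a description. For Gadd45g the 3 closest were AABR07047256.1, Atxn7 and Sik1 (r of 0.993, 0.993 and 0.992), and Sik1, a salt-inducible kinase gene, went from 17.4 FPKM in control cells to 10.7 and 10.2 FPKM at 12 h and 256 and 234 FPKM at 24 h. For Gadd45b they were ST7, Snx18 and Usp37 (0.993, 0.990 and 0.989), for Polk Naa16, Rictor and Taok3 (0.993, 0.992 and 0.991), and for Polh March3, Map4k3 and Kctd1 (0.979, 0.979 and 0.974). For Gadd45a they were Lrrfip1, Sstr1 and Deptor (0.976, 0.975 and 0.964). The time pattern of Polk was widely shared, with 1061 genes at r of at least 0.9, beside 959 for Gadd45g, 778 for Gadd45b and 533 for Polh. The number was 44 for Gadd45a and 0 for Xpc and Rrm2b. The closest to Xpc were Bms1, Sft2d2 and Tspan14 (0.837, 0.802 and 0.789), to Rrm2b AABR07008030.1, LOC100363116 and Efcab14 (0.843, 0.802 and 0.781), and to Ddb2 LOC100909840, Prss35 and Gmfb (0.928, 0.914 and 0.892).

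Among the 8 genes themselves, Gadd45b and Gadd45g ran most alike (r = 0.975 over the same 15 libraries), followed by Polk and Gadd45g (0.958). Gadd45a ran closer to Polh (0.904) than to Gadd45b (0.774). Ddb2 ran against all 3 Gadd45 genes and both polymerases, with r from -0.847 (Polh) to -0.684 (Gadd45b). Rrm2b was near 0 with Polk, Polh and Gadd45a (-0.052 to 0.055).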

How the data were processed

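RNA libraries, 15 in all and 3 per group, were sequenced on an Illumina HiSeq instrument. Per the labels and the methods of the study, the authors aligned reads of 150 bases with HISAT2 2.0.13 to Rnor_6.0, converted the alignments with samtools 1.9 and assembled transcripts with StringTie 1.3.5. They deposited 1 table of FPKM values per transcript, annotated or assembled, which was used without rescaling. Counts were not analysed here. Low FPKM values come in steps that give the depth of a library, and 77.5 to 83.5% of them per library were within 0.1 of a whole multiple.

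For each gene the FPKM of its named transcripts was added to that of the unnamed ones in loci with that name only. At 909 loci with several names only named transcripts were used, and 4738 transcripts with 3.25 to 3.98% of the FPKM per library stayed unassigned. Hspa8 and Zfp36 lie in such loci and were not tested.

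The test was limma 3.58.1 in R 4.3.3 on log2(FPKM + 1) of 17895 genes with a mean of at least 0.5 FPKM, with 1 mean per group, all 15 libraries, 10 residual degrees of freedom and a mean-variance trend, two-sided. A gene passed at an adjusted p (Benjamini-Hochberg) below 0.05 and at least 1.5-fold. Exposed groups were compared with control, 24 h with 12 h for each dose, and 20 Gy with 5 Gy at each time, alone or pooled over doses, and the change over time was compared between doses. The code was tested on simulated data first.

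The 8 genes and the gene lists were chosen with earlier results of these data known. Named besides the 8 genes were up to 2 called genes per list with the largest rise and up to 2 with the largest fall over the 4 exposed groups, and the 3 genes with the highest r for each of the 8. The immediate early genes that passed as lower at 12 h were also named, after seeing the data. Alternatives were other values of the pseudocount (0.1) and of the filter (none, or 1 FPKM), quantile normalization, rescaling to the same sum, fits of the compared groups only, no trend, a replicate block, unadjusted p, named transcripts only, the highest transcript only, leaving out each library and, added after seeing the data, length-weighted sums.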

Additional observations from a re-analysis of the deposited data

Results flagged for a closer look

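For 5 of the 8 genes the change against control differed between 24 h and 12 h by the test of the difference itself (both doses together, limma, 6 against 6 libraries, the control mean cancelling out). Over all 17895 genes, 15.5% passed this test as higher at 24 h, and 6517 passed it in either direction. The difference of the log2 changes was 4.18 for Gadd45g, 3.94 for Gadd45b, 1.49 for Gadd45a, 1.40 for Polk and 1.20 for Polh. For Gadd45b and Gadd45g the change also differed in sign, being -1.29 and -0.66 at 12 h and 2.64 and 3.52 at 24 h. No test for single far-off libraries was made, since the groups held 3 libraries each.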

How the results depend on the processing

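Over 72 changes of single genes, 816 of 856 values under other settings kept the direction and the side of the threshold of the reported value, as did 490 of 510 values with 1 library left out. The calls at 24 h and from 12 h to 24 h of Gadd45b, Gadd45g, Polk and Polh, those at 12 h of Gadd45b and the call of Gadd45a 24 h after 5 Gy held under every setting tried. Quantile normalization, which brings the median change of all genes 24 h after 20 Gy from -0.14 to -0.03, changed no direction of the 8 genes. None of the reported values that changed direction had passed the test. The cause was not tested. With named transcripts only, they were Ddb2 at -0.16 (5 Gy 12 h) and 0.77 (24 h against 12 h after 20 Gy), Xpc at -0.35 (20 Gy 12 h), -1.53 (5 Gy 24 h), -0.67 (both doses 24 h) and 0.54 (24 h against 12 h after 20 Gy), Polh at 0.01 (5 Gy 12 h) and Gadd45a at 0.23 (both doses 12 h). With the highest transcript only, the values of Xpc, Polh and Gadd45a were the same (-0.35, -1.53, -0.67, 0.54, 0.01 and 0.23), Ddb2 was at 0.46 (20 Gy 12 h) and 0.35 (both doses 12 h), and Rrm2b at -0.28 (5 Gy 12 h), -0.19 (5 Gy 24 h), -0.48 (20 Gy 24 h), -0.34 (both doses 24 h) and 0.09 (24 h against 12 h after 5 Gy). Rrm2b has no value from named transcripts, which were at 0. With length-weighted sums they were Ddb2 at 0.00 (both doses 12 h), Xpc at -0.02 and Rrm2b at -0.06 (20 Gy 24 h), and with rescaling Polh at 0.01 (5 Gy 12 h). With 1 library left out, the ranges that crossed 0 were -0.01 to 0.13 for Ddb2 12 h after 5 Gy, -0.11 to 0.02 for Ddb2 at 12 h with both doses, -0.56 to 0.06 for Rrm2b from 12 h to 24 h after 5 Gy, -0.07 to 0.03 for Polh and -0.62 to 0.02 for Gadd45a 12 h after 5 Gy, and -0.19 to 0.14 for Gadd45a at 12 h with both doses.

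Of 416 counts of called genes under other settings, 405 were within 1.5 times the reported count. For the 20 Gy group at 12 h, 2 were called with named transcripts only, of the 7 genes with a value there, and at an unadjusted p 1 was called for the change over time between doses, while the heat shock count at 12 h was 0 with quantile normalization and with rescaling. With 1 library left out, at 12 h with both doses, 1 to 2 of the 8 genes, 0 to 2 GADD45 partners and 0 to 1 heat shock genes were called. Rrm2b 24 h after 5 Gy ran from 0.24 to 0.84 with 1 library left out, and passed the test without 5 Gy 24 h replicate 1 (0.84, limma adjusted p = 0.0247) and under rescaling (0.72, adjusted p = 0.0394), and 12 h after 5 Gy under quantile normalization (0.83, adjusted p = 0.0487).

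With the replicate number as a block, 0 of 96 calls of the 8 genes changed, and 5 of the 8 were called at 24 h with both doses, as without it. Deviations of same-numbered libraries correlated between -0.177 and 0.232 (30 pairs, median 0.009), against -0.209 to 0.203 for other pairs (60, median 0.006). Over all genes the numbers thus showed no pairing. These correlations cannot exclude a pairing within a time or for single genes. Gadd45a fell with the replicate number in both 12 h groups and rose with it in both 24 h groups. Ddb2, with the fewest read equivalents (168 to 344 per library), has the least depth behind its values.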
